A study of Mus musculus with 22 samples.

Results

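Kidneys of 5 mice given cisplatin were compared with kidneys of 5 mice given vehicle, which together are 10 of the 22 libraries of the series, chosen by the group that the sample labels name. The other 12 libraries came from mice given KW6002 (istradefylline, an adenosine receptor antagonist) with or without cisplatin. They entered the filter on low counts, the scaling factors and the shared estimate of the spread between mice, but not the contrast. All animals were C57Bl6/J males of 8 to 10 weeks. Cisplatin was injected i.p. at 3 mg/kg on 6 consecutive days and the kidneys were collected 72 hours after the last dose. The vehicle was the carrier solution of KW6002, made of 15% DMSO, 15% cremophor and 70% saline. The same carrier is listed for the cisplatin mice, and cisplatin itself was dissolved in saline. Libraries were made from kidney tissue, held 26471762 to 37562014 counts and are each taken as 1 mouse, which the labels do not state; the cell types below are read through their marker genes and no cell was isolated. Markers of the proximal tubule, which makes up the largest share of the organ, were abundant in all vehicle kidneys (summed over 17 genes, 37014 to 38902 CPM with vehicle and 15145 to 23308 CPM with cisplatin).

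The nephron is a chain of segments with separate duties. The proximal tubule takes back most of the filtered glucose, amino acids, phosphate and protein and secretes organic anions and cations; the thick ascending limb and the distal convoluted tubule then recover salt, and the collecting duct adjusts water, acid and potassium. Cisplatin enters proximal tubule cells through organic cation transporters, platinates DNA and is known for acute injury of these cells, in which p53, antioxidant and inflammatory programs are switched on and transporters are lost.

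Values are CPM, that is, read counts scaled to library size and to trimmed mean of M-values (TMM) factors, and are given as mean ± SD over 5 mice per group. The log2 fold change is cisplatin minus vehicle from 1 model of all genes, with its SE, and p-values are from the edgeR quasi-likelihood test with Benjamini-Hochberg adjustment over 17131 genes. A gene was called where it changed by more than 1 on the log2 scale and its adjusted p was below 0.01, and a member of a gene list was read as higher or lower, or as having risen or fallen, at an adjusted p below 0.05. A signed number that follows "at" or "a median of" is this log2 fold change, and 2 values joined as "from" and "to" are the mean CPM with vehicle and with cisplatin. At an adjusted p below 0.05 70.5% of all genes passed, since 34.6% were higher and 35.9% were lower. As calls 12.1% of all genes were called higher and 12.1% lower, and the 5 cisplatin and 5 vehicle values did not overlap for 55.3% of genes. Every list below is read against these shares, and over all genes the log2 fold change had a median of -0.01. The first principal component held 81.4% of the variance and separated the groups, with the fifth cisplatin kidney nearest to the vehicle kidneys. Scaling by library size alone raised the median of all genes to 0.20 and the share of calls that were higher from 2069 of 4137 to 62.6%, so small changes are to be read relative to that shift. Each library label carries a code number whose meaning is not stated, and 3 vehicle libraries fall in a lower run of these numbers while the other 2 vehicle and all cisplatin libraries fall in a higher one. With the higher-numbered libraries alone 4186 genes were called in place of 4137.

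Transcripts that were abundant with vehicle took a smaller part of the RNA after cisplatin. Genes were placed by their level in the vehicle libraries, which are also in the contrast. Among the 83 genes above 1000 CPM with vehicle, 48 (57.8%) were called lower and 3 higher, with a median log2 fold change of -1.21. Below 1 CPM with vehicle the balance was the other way, with 25.1% of 3072 genes called higher and 15.1% called lower. The filter asked for a minimum count of 10 in 5 libraries of any group. A gene near 0 with vehicle could thus be tested only through another group, and this balance was partly set by the filter. The 100 genes most abundant with vehicle, picked on the vehicle libraries and so given without a test, held 29.6% ± 0.293 of all counts with vehicle and 17.4% ± 1.05 with cisplatin. The 100 genes most abundant with cisplatin, picked on those libraries, held 22.1% ± 0.258 with vehicle and 22.3% ± 0.764 with cisplatin. In whole tissue, fewer cells of a type and less RNA per cell cannot be told apart, here and in all that follows.

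Kap, the kidney androgen-regulated protein of the male proximal tubule, stood second only to Gpx3 among nuclear-encoded transcripts of the vehicle kidneys. It measured 18155, 18925, 20473, 22784 and 19292 CPM in the vehicle kidneys and 372, 647, 583, 624 and 684 CPM in the cisplatin kidneys (log2 fold change -5.10 ± 0.36 (SE), adjusted p = 1.69e-11). Slc34a1, the main sodium-phosphate cotransporter of the proximal tubule, measured 8404, 7554, 7357, 7546 and 7063 CPM in the vehicle kidneys and 57.0, 114, 188, 222 and 573 CPM in the cisplatin kidneys (log2 fold change -5.04 ± 0.41 (SE), adjusted p = 2.32e-10). Both fell in all 5 cisplatin kidneys without overlap, and for Slc34a1 the cisplatin kidneys themselves spread widely, with replicate 1 lowest and replicate 5 highest. Spp1, the secreted phosphoprotein osteopontin, went the other way and took the place that Kap had held. It measured 842, 771, 816, 731 and 757 CPM in the vehicle kidneys and 12702, 11406, 11649.7, 12023 and 10899.7 CPM in the cisplatin kidneys (log2 fold change 3.91 ± 0.09 (SE), adjusted p = 1.31e-19). Of the other genes among the 10 most abundant with cisplatin, a pair also rose: Fth1, the ferritin heavy chain, from 2649 to 7874 CPM (adjusted p = 1.02e-11), and Pck1, the gluconeogenic enzyme, from 2960.3 to 6150.0 CPM (adjusted p = 1.34e-04). Gpx3, the secreted glutathione peroxidase of the proximal tubule, kept its place among them and fell by a smaller amount, from 25779.9 to 20022 CPM (adjusted p = 2.17e-04), which did not pass with scaling by library size alone (adjusted p = 0.0531).

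**Figure D1:**
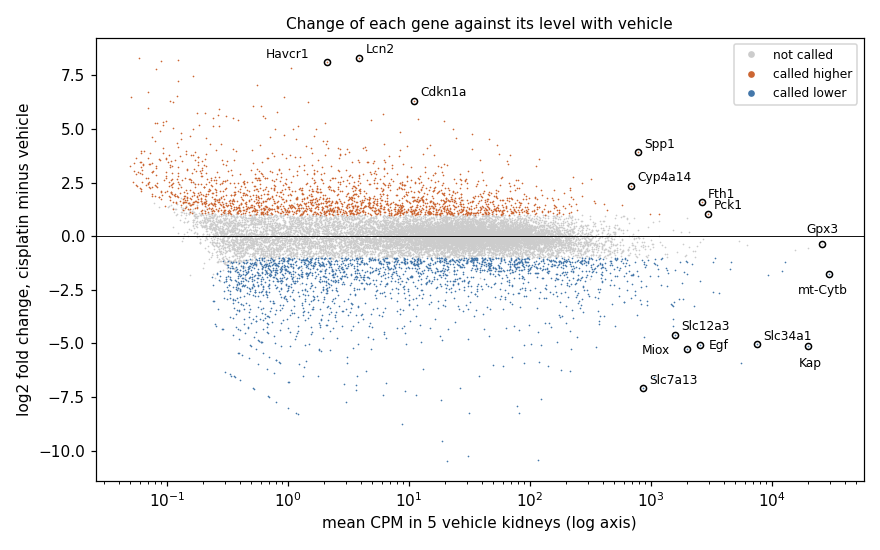
Each point is 1 gene, with its mean CPM in the 5 vehicle kidneys on a log horizontal axis and its log2 fold change, cisplatin minus vehicle, on the vertical axis; orange and blue points were called higher and lower, and genes below 0.05 CPM with vehicle are not drawn. At the right end most points lie below 0, with Kap at -5.10 and Slc34a1 at -5.04, whereas Spp1, which is less abundant with vehicle, lies at 3.91.

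Proximal tubule markers fell along the whole segment. All 8 markers of the first segment were lower, with a median of -2.85 (6 were called lower), 7 of 8 markers of the last segment were lower, with a median of -2.89, and 16 of 17 markers shared by all segments were lower, with a median of -1.08. Gatm, the first enzyme of creatine synthesis, fell by 4.69 on the log2 scale, and Slc5a2, the glucose transporter SGLT2 of the early tubule, was lower at -3.67. Slc7a13, the cystine and glutamate carrier of the straight segment, measured 666, 710.4, 976, 966 and 1003 CPM in the vehicle kidneys and 3.44, 6.93, 6.50, 6.85 and 8.16 CPM in the cisplatin kidneys (log2 fold change -7.08 ± 0.33 (SE), adjusted p = 1.70e-14). The groups were far apart, and the fifth cisplatin kidney again held the highest value of its group. Miox, which opens the breakdown of inositol, measured 2000.4 ± 288 CPM with vehicle and 52.0 ± 21.8 CPM with cisplatin (log2 fold change -5.27 ± 0.25 (SE), adjusted p = 2.27e-14). Bcat1, the marker of the last segment that did not pass, stood at 40.9 and 41.5 CPM, and without the first 2 vehicle kidneys it was lower at -0.48.

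The size of the fall varied among proximal tubule genes. Hnf4a, the transcription factor that maintains this cell type, measured 982 ± 41.4 CPM with vehicle and 653 ± 59.3 CPM with cisplatin (log2 fold change -0.59 ± 0.06 (SE), adjusted p = 2.81e-08). Its log2 fold change was a fraction of those of Slc34a1 and Miox in the same kidneys, and the summed level of the 17 shared markers was 38189 ± 756 CPM with vehicle and 18892 ± 3074 CPM with cisplatin. Pck1 was the single marker that rose, and it measured 3032, 3845, 2454, 2945 and 2525 CPM in the vehicle kidneys and 4705, 6800.4, 5553, 5873 and 7818 CPM in the cisplatin kidneys (log2 fold change 1.05 ± 0.21 (SE), adjusted p = 1.34e-04). In the fifth cisplatin kidney, Slc34a1, Slc5a2 and Pck1 were each at their highest of that group.

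The distal convoluted tubule had no marker that held its level. All 10 of its markers were lower, with a median of -2.32, and their summed level was 2679 ± 112 CPM with vehicle and 334 ± 66.9 CPM with cisplatin. Slc12a3, the thiazide-sensitive sodium chloride cotransporter that defines the segment, measured 1605, 1603, 1553, 1612 and 1609.5 CPM in the vehicle kidneys and 34.6, 80.3, 61.8, 74.3 and 79.4 CPM in the cisplatin kidneys (log2 fold change -4.59 ± 0.23 (SE), adjusted p = 5.22e-14). The groups were far apart, and the first cisplatin kidney again had the lowest value. Pvalb, the calcium buffer parvalbumin of the early part of the segment, measured 18.5 ± 1.35 CPM with vehicle and 0.0908 ± 0.0586 CPM with cisplatin (log2 fold change -7.62 ± 0.28 (SE), adjusted p = 5.02e-16), and the most counts in any cisplatin library were 6. Counts this low do not pass the filter, so Pvalb was tested only through a group where it was more abundant. Calb1, the calcium carrier calbindin of the later part of the segment, fell less, from 368 to 65.8 CPM (adjusted p = 2.16e-10).

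In the thick ascending limb 9 of 11 markers were lower and 1 was higher, with a median of -1.53. Umod, which encodes uromodulin, the most abundant urinary protein, measured 3768, 3918, 5519, 4591 and 4876 CPM in the vehicle kidneys and 1648, 1706, 1532, 1660.3 and 1330.3 CPM in the cisplatin kidneys (log2 fold change -1.53 ± 0.14 (SE), adjusted p = 8.75e-10). Slc12a1, the furosemide-sensitive cotransporter, and Kcnj1, the potassium channel ROMK that serves it, fell to nearly the same extent, at -1.60 and -1.60. Egf, the growth factor precursor made by this segment and the early distal convoluted tubule, was set apart from them. It measured 1889.9, 2146, 2627, 2972 and 3058 CPM in the vehicle kidneys and 59.0, 78.0, 69.6, 76.2 and 96.6 CPM in the cisplatin kidneys (log2 fold change -5.06 ± 0.29 (SE), adjusted p = 4.50e-13). Cldn19, a claudin of the paracellular calcium and magnesium path, was the marker that rose, from 41.2 to 62.8 CPM (adjusted p = 0.0136), with overlapping groups, and did not pass without the first 2 vehicle kidneys (adjusted p = 0.187).

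Collecting duct markers were mixed. Of 10 principal cell markers 4 were higher and 2 lower, with a median of 0.02, which is close to that of all genes. Aqp2, the vasopressin-regulated water channel, measured 86.8, 83.5, 254, 187 and 192 CPM in the vehicle kidneys and 466, 540.2, 415, 359 and 357 CPM in the cisplatin kidneys (log2 fold change 1.41 ± 0.25 (SE), adjusted p = 2.46e-05). Every cisplatin kidney was above every vehicle kidney, and the first and second vehicle kidneys were the lowest of all. Elf5, a transcription factor of principal cells, rose from 1.83 to 8.38 CPM (adjusted p = 3.85e-05), whereas Hsd11b2, the enzyme that shields the mineralocorticoid receptor from glucocorticoids, fell from 105 to 56.0 CPM (adjusted p = 5.34e-11). Among the neighbouring intercalated cells 8 of 12 markers were lower and 1 higher, with a median of -0.86. Slc4a1, the basolateral chloride-bicarbonate exchanger of acid-secreting cells, fell from 62.8 to 8.39 CPM (adjusted p = 4.32e-10), and Insrr, an alkali-sensing receptor of base-secreting cells, from 57.0 to 7.52 CPM (adjusted p = 1.71e-12). The proton pump subunits Atp6v1g3 and Atp6v0d2 of the same cells did not pass, at -0.12 and -0.02.

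Markers of the medulla and renal pelvis varied between mice within a group. Slc14a2, the urea transporter of the inner medulla, measured 0.648, 5.69, 58.8, 33.2 and 37.9 CPM in the vehicle kidneys and 197, 192, 168, 165 and 108 CPM in the cisplatin kidneys (log2 fold change 2.60 ± 0.54 (SE), adjusted p = 1.78e-04). The first 2 vehicle kidneys were almost without it, and all cisplatin kidneys were above all vehicle kidneys. The summed level of the 7 thin limb markers, of which 4 were higher and none lower, was 117 to 331 CPM with vehicle and 738 to 981 CPM with cisplatin. Urothelium, the lining of the renal pelvis, moved the same way, with 5 of 6 markers higher and a summed level of 3.53 to 31.9 CPM with vehicle and 70.7 to 84.2 CPM with cisplatin. Leaving out the first 2 vehicle kidneys, a choice made after seeing these values, left the median of the thin limb list at 1.75, of the urothelium list at 2.01, of the principal cell list at -0.11, of the thick ascending limb list at -1.67 and of the distal convoluted tubule list at -2.20. The part of the sampled region in the collecting duct and thin limb values was not tested further.

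**Figure D2:**
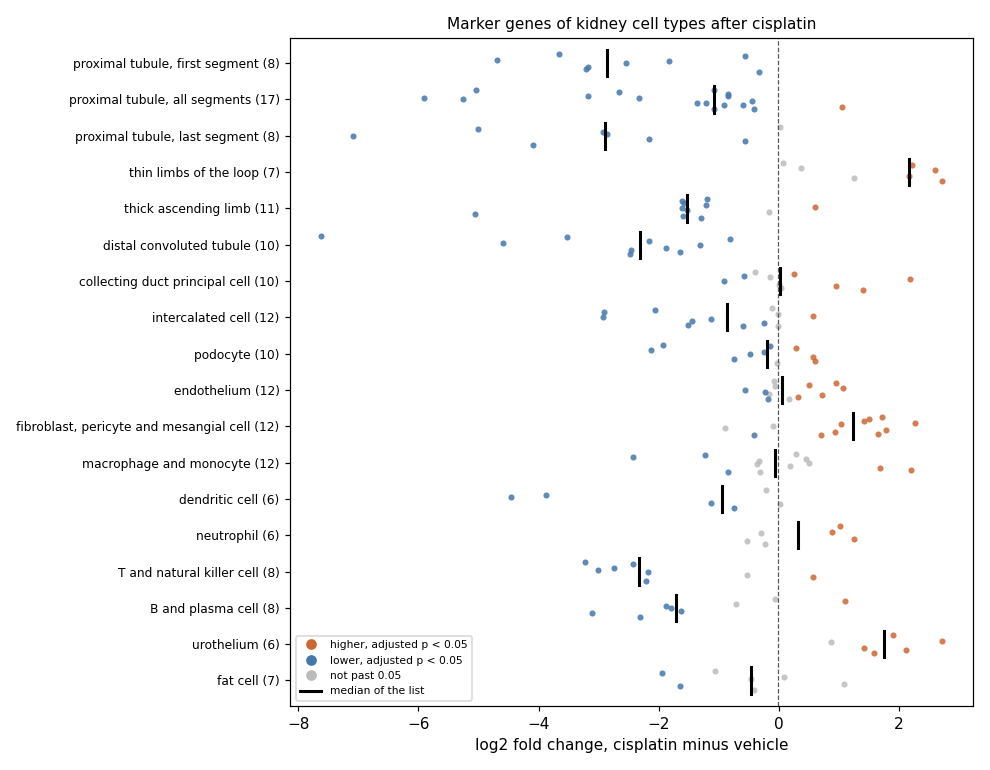
Each point is 1 marker gene, placed by its log2 fold change, cisplatin minus vehicle, with the number of markers tested in brackets after each cell type; the black bar is the median of the list and the dashed line the median of all genes. The proximal tubule and distal convoluted tubule lists lie almost wholly to the left, with medians of -2.85, -2.89 and -2.32, the principal cell list straddles the line and the stromal list lies to the right at 1.23.

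**Figure D3:**
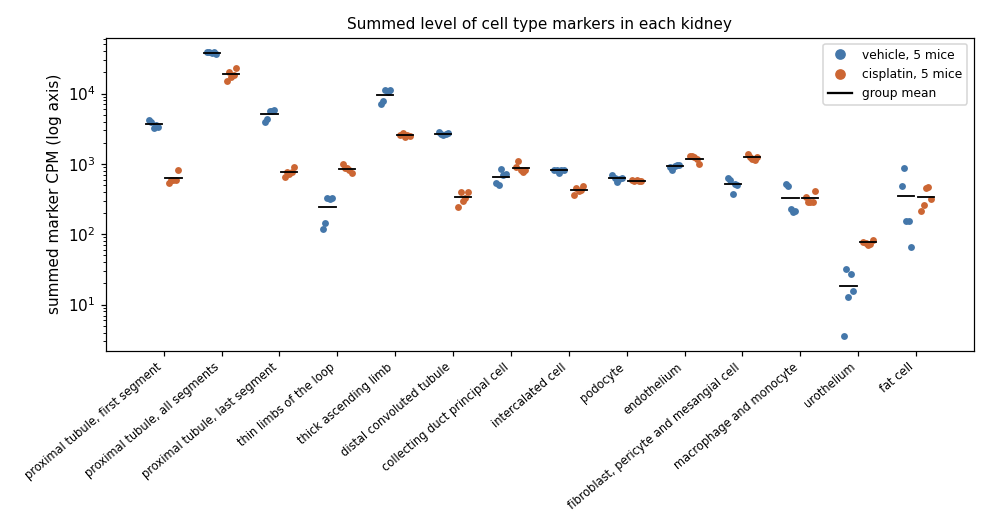
Summed CPM of each marker list in each kidney on a log axis, blue for 5 vehicle and orange for 5 cisplatin mice, with a black line at each group's mean. The groups are apart for the proximal tubule, thick ascending limb and distal convoluted tubule, overlap for podocytes, macrophages and fat, and are apart in the other direction for stroma, thin limbs and urothelium.

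Glomerular and vessel markers moved in both directions. Of 10 podocyte markers 6 were lower and 3 higher, and their median of -0.19 turned to 0.02 with scaling by library size alone. Nphs1, which encodes nephrin of the slit diaphragm, was lower at -0.24 with overlapping groups and at -0.02 with that scaling. Of 12 endothelial markers 5 were higher and 3 lower, with a median of 0.05. Their summed level was 822 to 973 CPM with vehicle and 981 to 1279 CPM with cisplatin. Eng, the co-receptor endoglin, was higher at 1.08, and Kdr, the main VEGF receptor, lower at -0.56. In the stroma 9 of 12 markers of fibroblasts, pericytes and mesangial cells were higher and 1 was lower. Pdgfrb and Pdgfra, the receptors that mark these cells, rose at 1.43 and 1.65, and their summed list was 522 ± 100.1 CPM with vehicle and 1241 ± 105 CPM with cisplatin. Rgs5, a pericyte gene, was the stromal marker that fell, at -0.42. Fat markers varied between the kidneys of each group, at 66.6 to 873 CPM with vehicle and 216 to 463 CPM with cisplatin, and 2 of 7 were lower. None of the 7 was lower without vehicle replicate 1 or 2 or cisplatin replicate 1, 2 or 5, and without the first 2 vehicle kidneys 1 was higher, with a median of 1.37 in place of -0.47.

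What the proximal tubule carries was examined by substrate. Of 17 amino acid carriers 12 were lower and 3 higher, with a median of -1.58. Cltrn, the chaperone collectrin that brings several of them to the brush border, fell from 1489 to 159 CPM (adjusted p = 1.94e-14), whereas Slc38a3, the basolateral glutamine carrier known to be induced in acidosis, rose from 67.6 to 383 CPM (adjusted p = 2.02e-12). For glucose and fructose 9 of 12 genes were lower. Slc5a2 measured 912, 775, 749.7, 707 and 674 CPM in the vehicle kidneys and 26.9, 54.2, 52.8, 55.0 and 112 CPM in the cisplatin kidneys (log2 fold change -3.67 ± 0.25 (SE), adjusted p = 1.11e-11), while Slc5a1, the transporter SGLT1 of the later tubule, stood at 81.1 and 77.5 CPM and did not pass (with only the higher-numbered libraries it was lower at -0.26), and Slc5a10, a mannose and fructose carrier, rose from 166 to 429.5 CPM (adjusted p = 2.52e-08).

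Most organic ion transporters fell, while several ATP-driven pumps among them rose. Among 24 genes 16 were lower and 7 higher, with a median of -0.95. Slco1a1, Slc22a7 and Slc22a8, carriers of organic anions, fell at -6.23, -5.01 and -3.17. Slc22a2, the organic cation transporter OCT2 through which cisplatin enters these cells, measured 331, 338, 358, 385 and 360.5 CPM in the vehicle kidneys and 79.4, 122, 105, 119 and 142 CPM in the cisplatin kidneys (log2 fold change -1.65 ± 0.11 (SE), adjusted p = 1.44e-11). Abcb1b, a P-glycoprotein pump that exports drugs, rose from 23.6 to 148 CPM (log2 fold change 2.64 ± 0.19 (SE), adjusted p = 2.18e-11). The 7 higher members were Abcb1b, Abcc2, Abcc4 and Abcg2, which are ATP-driven exporters, and Slco2a1, Slco2b1 and Slco4a1, whereas the pump gene Abcb1a did not pass at -0.35 (fitted on the 10 libraries alone it was lower, adjusted p = 0.00461) and Slc47a1, the cation and proton exchanger MATE1 of the brush border, was lower at -1.88.

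Among phosphate, calcium and vitamin D genes 12 of 18 were lower, with 3 higher and a median of -1.25. Slc34a3, the second renal phosphate cotransporter, fell to 1.496 from 89.3 CPM (log2 fold change -5.91 ± 0.30 (SE), adjusted p = 7.19e-14), and Casr, the calcium-sensing receptor, from 68.5 to 8.09 CPM (adjusted p = 1.64e-16). Slc20a1, a phosphate importer that most cells express, rose from 52.7 to 122 CPM (adjusted p = 7.67e-11). Of 21 genes for brush border endocytosis and lysosomes 10 were lower and 5 higher, with a median of -0.07 that became 0.15 with scaling by library size alone. Lrp2 and Cubn, which encode the protein receptors megalin and cubilin, fell at -2.66 and -1.36, and Ctsd, the lysosomal protease cathepsin D, rose at 1.51. Further along, 12 of 23 genes for water and salt transport were lower and 5 higher, and Sgk1, the kinase through which aldosterone acts on sodium channels, rose from 92.8 to 312 CPM (adjusted p = 1.72e-06).

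**Figure D4:**
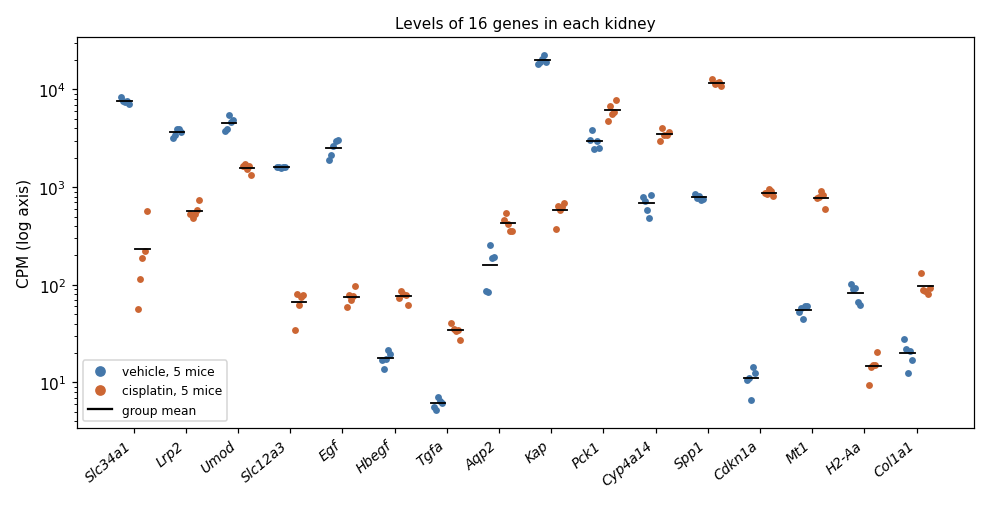
CPM of single genes in each kidney on a log axis, blue for 5 vehicle and orange for 5 cisplatin mice, with a black line at each group's mean. For each of these genes the groups do not overlap, and the cisplatin values of Slc34a1 run from 57.0 to 573 CPM.

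Most transcription factors of nephron identity were lower. Of 22 factors 15 were lower and 4 higher, with a median of -0.58. Emx1, which the distal segments express, was lower at -2.17. Ppara, the fatty acid receptor, rose from 98.9 to 183 CPM (adjusted p = 1.24e-07). All 10 genes known for higher levels in male than female proximal tubules were lower, with a median of -3.16 and a summed level of 27024 ± 2083 CPM with vehicle and 1468 ± 244 CPM with cisplatin. Cyp2j13, a cytochrome P450 of this set, fell from 355 to 9.86 CPM (adjusted p = 1.44e-11). Several of these genes also mark the last proximal segment. Of 5 genes with the opposite sex bias 2 were lower and 1 higher, Slc7a12 at -4.67, Hao2 at -3.71 and Cyp4a14 at 2.36.

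Respiration genes fell in both genomes. Messenger RNAs encoded in mitochondria held 9.31% ± 0.154 of the counts with vehicle and 4.83% ± 0.447 with cisplatin (n = 5 mice per group, two-sided exact permutation test, p = 0.00794, the smallest that 5 against 5 allows). The comparison was chosen with earlier results of these data known, so the p-value only describes that the groups did not overlap. Only uniquely aligned reads were counted, so this share rests mainly on the 7 messenger RNAs that passed the filter, all of which were lower. Among them mt-Cytb, the cytochrome b subunit, and mt-Nd4, a complex I subunit, were lower at -1.78 and -1.81, and mt-Co1, the first subunit of complex IV, at -0.55. Of 43 nuclear-encoded subunits 38 were lower and 1, Cox8a, was higher, which it was not past the test when vehicle replicate 2 or 3 or cisplatin replicate 2 or 5 was left out, nor with only the higher-numbered libraries. The median was -0.46. Ndufs1 of complex I and Sdha of complex II fell the most, at -1.46 and -1.33. All 18 citric acid cycle genes were lower, with a median of -0.83, led by Idh2, the mitochondrial isocitrate dehydrogenase, at -1.60.

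Fatty acid genes split. Of 35 genes 16 were higher and 14 lower, with a median of 0.08. Pdk4, which turns cells from glucose to fat as fuel, measured 67.1, 67.3, 41.0, 96.3 and 57.1 CPM in the vehicle kidneys and 634, 722, 683, 686 and 649 CPM in the cisplatin kidneys (log2 fold change 3.36 ± 0.24 (SE), adjusted p = 2.72e-11). Cyp4a14, a fatty acid hydroxylase, measured 792, 726, 587, 487 and 834 CPM in the vehicle kidneys and 2972, 4019, 3448, 3451 and 3702 CPM in the cisplatin kidneys (log2 fold change 2.36 ± 0.20 (SE), adjusted p = 3.95e-10). Acot1, a thioesterase, was higher at 1.97. Lower members included dehydrogenases of the mitochondrial spiral. Acads, for short chains, was lower at -1.13, Acadm, for medium chains, at -0.97, and Hadh, which acts later in the spiral, at -1.04. Ppargc1a, the coactivator that drives mitochondrial gene expression, fell from 119 to 62.3 CPM (adjusted p = 4.06e-09). In the kidney's glucose production the first committed enzyme and the later ones parted in the same way, since Pck1 rose while Fbp1 and G6pc, which complete the path, were lower at -1.08 and -1.18.

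Cholesterol synthesis and uptake genes were lower in 17 of 22 cases and higher in 0, with a median of -0.65. Cyp51, the lanosterol demethylase, fell from 259 to 25.9 CPM (log2 fold change -3.33 ± 0.15 (SE), adjusted p = 9.74e-15), and Hmgcs1, at the head of the path, from 769 to 249.9 CPM (adjusted p = 3.29e-09). Of 14 enzymes that remove peroxide and superoxide 9 were lower and 2 higher, with Sod2, the mitochondrial superoxide dismutase, at -1.16 and Prdx6, a peroxiredoxin that acts on lipids, at 1.04. Glycolysis had no common direction, with 5 of 17 genes higher and 7 lower.

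Secreted and surface markers of tubule injury were higher in 18 of 18 cases, with a median of 3.26 and a summed level of 1652 ± 99.8 CPM with vehicle and 19072 ± 987 CPM with cisplatin. Of that sum Spp1 made up the larger part. Beyond the clinical marker Havcr1, which encodes KIM-1 and was higher at 8.11, the 3 chains of fibrinogen, the clotting protein that the liver makes and that injured tubules are known to express, rose together. Fga measured 33.6 ± 5.56 CPM with vehicle and 921 ± 97.3 CPM with cisplatin (log2 fold change 4.78 ± 0.28 (SE), adjusted p = 7.01e-13), and Fgb and Fgg were higher at 5.28 and 5.44. Of 15 genes of dedifferentiated epithelium 13 were higher and 0 lower, with a median of 1.36. Sox9, the factor that regenerating tubule cells switch on, measured 1.36, 0.602, 0.840, 0.704 and 1.01 CPM in the vehicle kidneys and 15.7, 10.7, 12.9, 14.8 and 11.4 CPM in the cisplatin kidneys (log2 fold change 3.84 ± 0.24 (SE), adjusted p = 3.13e-12). Krt20, a keratin of injured tubules and of urothelium, rose from 1.06 to 241 CPM (log2 fold change 7.83 ± 0.33 (SE), adjusted p = 4.01e-15). Vim, the mesenchymal filament vimentin, stood at 54.1 and 55.5 CPM and did not pass, whereas without the first 2 vehicle kidneys it was higher at 0.51.

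The p53 program rose almost as a whole. Of 31 target genes 28 were higher and 0 lower, with a median of 2.55, and the groups did not overlap for 28 of them, against the background share of 55.3%. Cdkn1a, the cell cycle inhibitor p21, measured 10.6, 10.99, 6.65, 14.4 and 12.6 CPM in the vehicle kidneys and 874, 851, 948, 923 and 809 CPM in the cisplatin kidneys (log2 fold change 6.32 ± 0.26 (SE), adjusted p = 3.21e-15). Its cisplatin values lay within a narrow band far above all vehicle kidneys. Psrc1, a microtubule protein, and Eda2r, a member of the TNF receptor family, were higher at 7.03 and 6.47, and Mdm2, the ligase that degrades p53, at 2.71. The 3 targets that did not pass were the DNA repair genes Ddb2, Rrm2b and Xpc, at 0.13, -0.04 and -0.04, and with scaling by library size alone each was higher, at 0.35, 0.18 and 0.18. DNA repair as a whole was mixed, with 14 of 38 genes higher and 10 lower and a median of 0.13. Ercc1, a subunit of the nuclease that cuts beside bulky and crosslinking adducts, rose from 10.4 to 44.2 CPM (log2 fold change 2.09 ± 0.11 (SE), adjusted p = 1.45e-13), and Rev1, a polymerase that copies past damaged bases, from 22.5 to 49.3 CPM (adjusted p = 1.10e-11). Fancl of the crosslink repair path was lower at -0.89. Ercc1 overlaps other annotated genes, and the sources used here do not say whether strand was used in counting.

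Of 40 genes of the BCL2 family, caspases and death receptors 25 were higher and 5 lower, with a median of 0.61. The higher side held both arms: Bbc3 and Pmaip1, which encode the killers PUMA and NOXA, were higher at 2.53 and 2.28, and the survival factor Bcl2l1, which encodes BCL-XL, at 1.84. Tnfrsf10b, the receptor for TRAIL, was higher at 3.03. Mlkl and Ripk3, the executioner and kinase of necroptosis, were higher at 2.27 and 1.84.

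**Figure D5:**
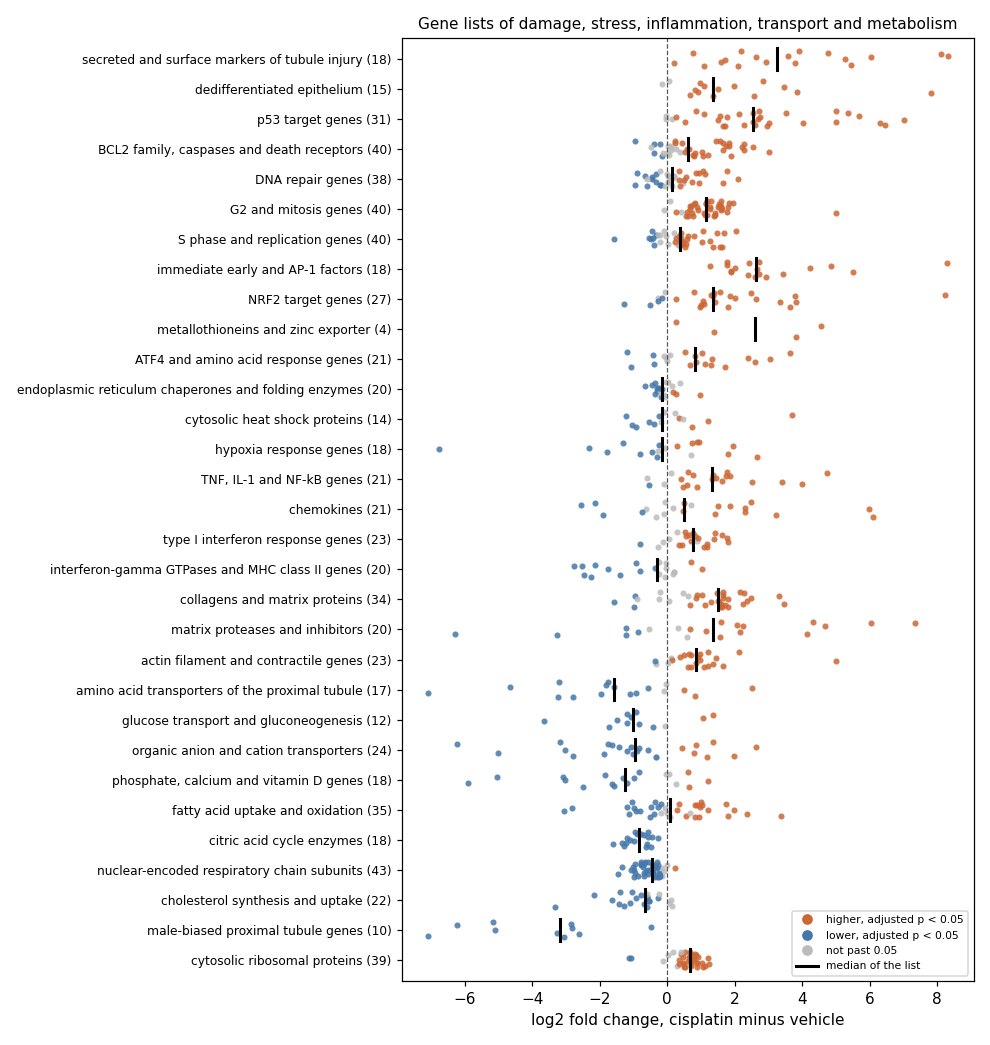
Each point is 1 gene, placed by its log2 fold change, cisplatin minus vehicle, with the number of genes tested in brackets after each list; the black bar is the median of the list and the dashed line the median of all genes. Injury, p53 and immediate early lists lie to the right, with medians of 3.26, 2.55 and 2.63, the male-biased list lies to the left at -3.16, and fatty acid genes fall on both sides.

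Genes of cell division rose from low levels alongside p21. Of 40 genes of G2 and mitosis 37 were higher and none lower, with a median of 1.16 and a summed level of 129.5 ± 17.0 CPM with vehicle and 244 ± 11.6 CPM with cisplatin. Mki67, the proliferation marker Ki-67, measured 7.09, 7.38, 5.14, 2.82 and 3.58 CPM in the vehicle kidneys and 13.0, 10.3, 9.35, 9.79 and 15.4 CPM in the cisplatin kidneys (log2 fold change 1.16 ± 0.29 (SE), adjusted p = 0.00117). All cisplatin kidneys were above all vehicle kidneys. Ckap2, a spindle protein, stood far from the rest of the list. It measured 1.07, 1.32, 0.706, 0.493 and 0.293 CPM in the vehicle kidneys and 24.7, 22.5, 24.5, 26.0 and 26.7 CPM in the cisplatin kidneys (log2 fold change 5.02 ± 0.25 (SE), adjusted p = 3.71e-14). S phase genes moved in both directions, with 25 of 40 higher, 7 lower and a median of 0.38. Rrm2, the small subunit of ribonucleotide reductase, rose at 2.03. Promoters of mitotic genes are known for the CHR element, through which the DREAM complex holds them silent in resting cells. The letters TTTGAA on either strand occurred in the 250 bases before the start of 12 of 32 mitotic genes that had a RefSeq window (build GRCm38.p6), against 10.9% of 12305 tested genes. Among the holders, the 2 with the largest changes were Ckap2 and Ube2c, a ubiquitin-conjugating enzyme of mitotic exit, and 80 bases of each are shown with the match in capitals. The first stretch is at chr8:22185841-22185920 on the minus strand and the second at chr2:164769849-164769928 on the plus strand.
Ckap2: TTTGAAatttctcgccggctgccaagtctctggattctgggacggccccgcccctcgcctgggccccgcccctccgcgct
Ube2c: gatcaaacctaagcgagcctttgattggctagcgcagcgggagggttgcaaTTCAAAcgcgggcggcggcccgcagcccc
A match shows only that these letters are there.

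Antioxidant genes under NRF2 were higher in 21 of 27 cases and lower in 4, with a median of 1.34. Srxn1, which repairs oxidized peroxiredoxins, measured 73.5, 61.8, 68.5, 69.1 and 72.6 CPM in the vehicle kidneys and 1047, 863, 1092, 1051 and 684 CPM in the cisplatin kidneys (log2 fold change 3.78 ± 0.16 (SE), adjusted p = 5.03e-15). The groups were far apart. Gclc, the rate-limiting enzyme of glutathione synthesis, rose from 272 to 1507 CPM (adjusted p = 1.86e-12), whereas its regulatory partner Gclm moved from 328 to 396 CPM (adjusted p = 0.00244) with overlapping groups and did not pass with only the higher-numbered libraries (adjusted p = 0.106). Me1, a source of NADPH that is also under NRF2, was lower at -1.28. Nfe2l2, which encodes NRF2 itself, was higher at 1.38. Counts of glutathione transferases such as Gsta1 rest on reads unique among near-identical copies and are uncertain in size.

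The metal-binding metallothioneins rose without overlap between the groups. Mt1 measured 52.98, 57.4, 44.6, 60.2 and 61.2 CPM in the vehicle kidneys and 772, 800.4, 902, 829 and 599.8 CPM in the cisplatin kidneys (log2 fold change 3.82 ± 0.21 (SE), adjusted p = 3.00e-13), and Mt2 was higher at 4.56. All 4 genes of the list were higher, the zinc exporter Slc30a1 at 0.27, which did not pass with only the higher-numbered libraries (0.19, adjusted p = 0.0577). Amino acid stress genes under ATF4 were higher in 13 of 21 cases and lower in 4, with Slc7a11, the cystine importer, at 3.64, Ddit4, an inhibitor of mTORC1, at 3.05 and Shmt2, the mitochondrial serine hydroxymethyltransferase, at -1.19. Chaperones of the endoplasmic reticulum did not rise with them: 10 of 20 were lower and 3 higher, and their median of -0.16 became 0.06 with scaling by library size alone. Hspa5, the master chaperone BiP, stood at 437 and 418 CPM and did not pass, although it was lower at -0.22 without the first 2 vehicle kidneys. Among 14 cytosolic heat shock genes 4 were higher and 6 lower, and the median of -0.15 became 0.07 with that scaling. The small heat shock protein gene Hspb1 rose from 1.15 to 15.2 CPM (log2 fold change 3.71 ± 0.25 (SE), adjusted p = 6.04e-12), and Dnaja1, a partner of HSP70, was lower at -1.21.

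Hypoxia genes had no common direction, with 7 of 18 higher and 8 lower, and their median of -0.15 turned to 0.08 without the first 2 vehicle kidneys. Adm, the vasodilator adrenomedullin, and Slc2a1, the glucose transporter GLUT1, were higher at 2.65 and 1.81. Vegfa, the endothelial growth factor that tubule cells supply, fell from 396 to 159 CPM (log2 fold change -1.32 ± 0.07 (SE), adjusted p = 2.22e-13). Epo, the red cell hormone made by interstitial cells, measured 1.01 ± 0.362 CPM with vehicle and 0.00535 ± 0.0120 CPM with cisplatin, with at most 1 count in any cisplatin library, and the ratio of vehicle to cisplatin counts was 188-fold (95% interval 33.2 to 7475). The interval covers counting error only, and Epo overlaps several annotated genes, so its low counts are uncertain. Epo was tested only through a group where it was more abundant, and its direction was largely set by that.

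All 18 immediate early and AP-1 factors were higher, with a median of 2.63. Egr1, a zinc finger factor that growth factors induce within minutes, measured 7.42, 8.26, 4.44, 9.76 and 12.6 CPM in the vehicle kidneys and 202, 312, 279.8, 274 and 171 CPM in the cisplatin kidneys (log2 fold change 4.87 ± 0.41 (SE), adjusted p = 3.62e-10). Fosl1, an AP-1 subunit of wounded epithelia, was at 20.7 ± 5.17 CPM with cisplatin and at no more than 6 counts in any vehicle library (adjusted p = 8.83e-14). The ligands of the EGF receptor moved in opposite directions. While Egf fell, Hbegf measured 17.0, 13.9, 17.4, 21.7 and 19.5 CPM in the vehicle kidneys and 73.3, 85.8, 81.0, 78.8 and 62.2 CPM in the cisplatin kidneys (log2 fold change 2.09 ± 0.14 (SE), adjusted p = 1.02e-11), and Tgfa, the other ligand made by stressed epithelia, measured 6.12 ± 0.705 CPM with vehicle and 34.2 ± 4.66 CPM with cisplatin (log2 fold change 2.48 ± 0.12 (SE), adjusted p = 5.52e-14). Areg and Ereg, which encode amphiregulin and epiregulin, had at most 1 count in any vehicle library and reached 1.77 and 1.22 CPM with cisplatin. The ratio of their counts was 128-fold (95% interval 35.1 to 1059) for Areg and 88.3-fold (95% interval 24.2 to 734) for Ereg. Both intervals cover counting error only and not the spread between mice. Counts as low as those of Areg, Ereg and Fosl1 with vehicle do not pass the filter. These genes were tested only through a group where they were more abundant, and their direction was largely set by that. The receptor Egfr itself rose from 99.3 to 145 CPM (adjusted p = 4.02e-05), and Erbb4 fell from 35.6 to 16.8 CPM (adjusted p = 1.11e-05).

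Most matrix genes were higher. The list shares members with the stromal list, Col1a1 among them, so the rises of these lists rest partly on the same values. Of 34 collagens and matrix proteins 25 were higher and 3 lower, with a median of 1.51. Col1a1, the main chain of fibrillar collagen, measured 28.1, 21.98, 12.4, 20.8 and 16.9 CPM in the vehicle kidneys and 132, 88.7, 86.4, 81.0 and 92.7 CPM in the cisplatin kidneys (log2 fold change 2.26 ± 0.32 (SE), adjusted p = 1.14e-06). Lox, which crosslinks collagen, and Ccn1, a matricellular protein under YAP and injury signals, were higher at 3.45 and 3.32. The basement membrane split by chain: Col4a1 rose from 341 to 1065 CPM (adjusted p = 4.76e-11), whereas Col4a3, a chain of the mature glomerular and distal tubule membrane, fell from 426 to 214 CPM (log2 fold change -0.99 ± 0.11 (SE), adjusted p = 2.74e-08) and Col4a4, its partner, from 414 to 214 CPM (adjusted p = 1.46e-09). Among laminins Lama3 was lower at -1.58.

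Of 20 matrix proteases and inhibitors 12 were higher and 5 lower. Timp1, the inhibitor of metalloproteinases, measured 0.518 ± 0.185 CPM with vehicle and 35.0 ± 7.01 CPM with cisplatin (log2 fold change 6.05 ± 0.37 (SE), adjusted p = 1.73e-12). Mep1b, the brush border protease meprin beta, fell from 214 to 2.76 CPM (adjusted p = 3.88e-12). In the TGF-beta pathway 14 of 17 genes were higher and 0 lower, Tgfb1 at 1.37 and Inhbb, an activin subunit, at 2.21. Actin filament genes were higher in 19 of 23 cases, Actn1, the crosslinker of stress fibres, at 2.13, and Vil1, villin of the brush border, was the 1 that was lower, at -0.37.

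Most genes of the NF-kB pathway were higher. Of 21 genes of the TNF, IL-1 and NF-kB pathway 17 were higher and 1 lower, with a median of 1.34. Il6, the cytokine interleukin 6, rose from 0.0262 to 0.837 CPM (adjusted p = 1.97e-05), from no more than 2 counts in any vehicle library. Such counts do not pass the filter, so Il6 was tested only through a group where it was more abundant. Its direction was largely set by that. Il1rn, the natural blocker of the IL-1 receptor, rose from 0.256 to 4.08 CPM, and Ptgs2, the inducible cyclooxygenase, was higher at 3.42. Csf1, the macrophage growth factor that tubules release, rose from 12.6 to 71.9 CPM (adjusted p = 4.92e-10). Tnf and Il1b did not pass (Il1b was lower without the fourth cisplatin kidney), at 0.322 and 0.299 CPM for Tnf and 1.95 and 1.27 CPM for Il1b. For Tnf this is a low level of counts. By quantitative PCR, another measure, the authors reported higher Tnf messenger RNA in kidneys after this cisplatin schedule. Among 21 chemokines 11 were higher and 4 lower. Cxcl1, which attracts neutrophils, measured 0.874, 0.682, 0.202, 0.634 and 0.586 CPM in the vehicle kidneys and 42.9, 29.7, 42.8, 46.2 and 41.7 CPM in the cisplatin kidneys (log2 fold change 6.09 ± 0.24 (SE), adjusted p = 1.63e-15), whereas Cxcl9, which attracts T cells and answers to interferon gamma, fell from 2.09 to 0.354 CPM (adjusted p = 1.81e-04). Of 19 complement genes 9 were higher and 1 was lower. C3, the central component, was higher at 3.59, and Cfb, which amplifies the alternative pathway, was the one that fell. It measured 43.2, 38.8, 38.1, 43.8 and 55.6 CPM in the vehicle kidneys and 3.65, 2.41, 4.61, 3.37 and 8.04 CPM in the cisplatin kidneys (log2 fold change -3.32 ± 0.25 (SE), adjusted p = 5.95e-11).

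The interferon lists were not tested against each other. Type I response genes were higher in 17 of 23 cases and lower in 1, with a median of 0.75, whereas of 20 interferon-gamma GTPases and MHC class II genes 2 were higher and 10 lower, with a median of -0.30. Ifit1, which binds foreign RNA caps, and Isg15, a ubiquitin-like modifier, were higher at 1.77 and 1.62. Rsad2, the antiviral enzyme viperin, went the other way, from 38.6 to 21.9 CPM (adjusted p = 1.82e-05). Type I targets are known for the interferon-stimulated response element, and a pair of GAAA separated by 2 bases, on either strand, occurred before the start of 8 of 16 of them, against 2.70% of all tested genes with a window. In the stretches of Ifit1 at chr19:34640785-34640864 on the plus strand and Isg15 at chr4:156200819-156200898 on the minus strand, shown as the 2 holders with the largest changes, the capitals mark matches, of which those of Isg15 overlap one another.
Ifit1: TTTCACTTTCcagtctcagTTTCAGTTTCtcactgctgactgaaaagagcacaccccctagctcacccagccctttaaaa
Isg15: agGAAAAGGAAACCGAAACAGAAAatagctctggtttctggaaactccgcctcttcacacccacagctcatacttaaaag
Rsad2, which fell, holds the same letters.

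The classical MHC class II genes, which dendritic cells, B cells and some macrophages use to present antigen, were among the lower members. H2-Aa measured 101.7, 91.4, 91.8, 67.2 and 61.4 CPM in the vehicle kidneys and 9.51, 14.4, 15.0, 15.0 and 20.4 CPM in the cisplatin kidneys (log2 fold change -2.48 ± 0.21 (SE), adjusted p = 3.08e-10), and Ciita, their master regulator, fell from 6.40 to 0.941 CPM (adjusted p = 3.64e-08), while H2-DMb1, which helps to load the peptide, did not pass at -0.07 (without cisplatin replicate 5 it was lower at -0.34). Of 6 dendritic cell markers 4 were lower and 0 higher, of 8 B and plasma cell markers 5 were lower and 1 higher, and of 8 T and natural killer cell markers 6 were lower and 1 higher, with summed levels of 5.53 to 9.78 CPM with vehicle and 3.45 to 4.47 CPM with cisplatin for the last. Cd3e, a subunit of the T cell receptor complex, was at 0.382 and 0.0805 CPM. Macrophage markers were split, with 2 of 12 higher and 3 lower and summed levels of 513, 477, 231, 208 and 216 CPM in the vehicle kidneys and 336, 283, 291, 290.2 and 412 CPM in the cisplatin kidneys. The first 2 vehicle kidneys stood above every other kidney of both groups, and they had the highest fat sums. Without those 2 kidneys 6 macrophage markers were higher and 2 lower, with a median of 0.78 in place of -0.06, and the chemokine median was 1.42 in place of 0.49, so the direction of the macrophage list rests on which vehicle kidneys are used. Itgam, an integrin of recruited myeloid cells, rose from 1.59 to 7.34 CPM (adjusted p = 2.27e-05), Cd68, a lysosomal marker, from 18.5 to 59.1 CPM (adjusted p = 0.00209), and Csf1r, the receptor for the product of Csf1, fell from 82.1 to 35.0 CPM (adjusted p = 6.63e-11). Of 6 neutrophil markers 3 were higher and 0 lower, with a median of 0.32 that was 1.07 without the first 2 vehicle kidneys. Mmp8, a granule collagenase, was higher at 1.26, whereas S100a8 and S100a9, calcium-binding proteins of these cells, did not pass, at -0.30 and -0.53.

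The clock genes were shifted against each other, with 10 of 19 higher and 5 lower. Nfil3, a repressor, and Per1, a core inhibitor, were higher at 2.47 and 1.80, and Hlf and Dbp, activators that bind the same sites as Nfil3, were lower at -1.99 and -1.42. The hours at which the mice were killed are not given in the labels, and their part was not tested. The E-box CACGTG, on which the core clock factors act, occurred before the start of 5 of 16 clock genes and of 8.04% of all tested genes with a window. Of the holders, Per1 and Cry1, a second inhibitor that was higher at 1.52, changed the most upward, and their stretches at chr11:69098783-69098862 on the plus strand and chr10:85185055-85185134 on the minus strand carry the E-box in capitals.
Per1: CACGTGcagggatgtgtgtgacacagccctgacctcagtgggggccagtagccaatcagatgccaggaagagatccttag
Cry1: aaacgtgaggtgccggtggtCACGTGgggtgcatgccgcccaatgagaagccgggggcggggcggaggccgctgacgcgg
The letters TGAC and GC with 3 bases between them, read for NRF2, were held by 5 of 22 NRF2 targets and 12.1% of all windows, and GGGA and TTCC with 2 bases between them, read for NF-kB, by 3 of 17 genes of that pathway and 1.21% of all. The same NF-kB letters were held by 3 of 14 chemokine genes. TGAC followed at once by GTCA, the full cAMP response element, was held by 0 of 12 immediate early genes and 1 of 16 clock genes, against 2.54% of all. TGCNCNC, the core read for metal-responsive elements, was held by all 4 genes of the metallothionein list and 51.9% of all.

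Ribosomal protein genes were higher in 32 of 39 cases and lower in 2, with a median of 0.67. Rplp0, of the large subunit, rose from 217 to 475 CPM (adjusted p = 1.01e-13), and Rpl5, a subunit that also restrains MDM2, was lower at -1.13. These genes have many near-identical copies, and since only unique alignments were counted their sizes are uncertain. Proteasome subunits had 15 of 29 members higher, 3 lower and a median of 0.16.

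Some genes were counted almost in 1 group alone. No more than 3 counts in every vehicle library, with an adjusted p below 0.05, were found for 97 genes that were higher with cisplatin. The same in the cisplatin libraries was found for 117 genes that were lower, of 17131 tested. Counts this low do not pass the filter, so such genes were tested only through a group where they were more abundant. Their direction was largely set by this choice, and the 97 and 117 are not read as a result. Where a ratio of summed counts is given, its 95% interval covers counting error only. Sprr2f, a small proline-rich protein of barrier epithelia, reached 23.1 ± 5.15 CPM with cisplatin, a ratio of 1123-fold (95% interval 384 to 5447). Vgf, a secreted neuropeptide precursor, reached 10.5 ± 2.00 CPM, a ratio of 1524-fold (95% interval 273 to 60236), and Saa1, an acute phase protein, 6.35 ± 0.726 CPM, a ratio of 460.1-fold (95% interval 127 to 3804). All 5 cisplatin kidneys carried each of them. In the other direction, Alas2, the heme synthesis enzyme of young red cells, went from 8.74 ± 6.98 CPM to no more than 2 counts per library. The adult beta globin gene Hbb-bs, of the same cells, measured 176, 241, 80.8, 40.6 and 41.6 CPM in the vehicle kidneys and 0.0799, 0.126, 0.0266, 0.0803 and 0.0850 CPM in the cisplatin kidneys, with at most 5 counts in any cisplatin library (adjusted p = 6.84e-11). All vehicle kidneys were above all cisplatin kidneys, and the first 2 vehicle kidneys were the highest. The part of blood left in the tissue was not tested. Hrg, the plasma histidine-rich glycoprotein, was at 6.11 ± 1.32 CPM with vehicle, 191-fold (95% interval 87.4 to 522) the level with cisplatin.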

How the data were processed

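RNA of 22 mouse kidney libraries, 10 of them used here, was sequenced by the authors as poly-A selected, stranded libraries with single reads of 50 bases. The authors aligned the reads to mm10 with STAR, kept unique alignments and deposited raw read counts per Ensembl gene made with HTSeq 0.6.1p1 (union mode). The strand setting of the counting is not given in the sources used here, so overlapping genes on opposite strands may share reads. Libraries held 26471762 to 37562014 counts, which sets a floor of 3 counts at 0.0753 to 0.12 CPM. Genes were filtered with filterByExpr (17131 of 32858 kept), scaled with TMM factors and fitted for all 22 libraries with edgeR 4.0.16 (quasi-likelihood F test, 1 mean per group, Benjamini-Hochberg adjustment over all genes tested). Each library was counted as 1 replicate. The sources used here do not state that each library is a separate mouse, and p-values measure only the spread between libraries. No libraries of a group agreed within sampling noise (chi-square per degree of freedom of at least 2.96 between replicates). Mitochondrial shares were compared by a two-sided exact permutation test. Gene symbols and overlaps came from GENCODE M21 and promoter windows from RefSeq (GRCm38.p6). Motifs were searched on both strands of each window. 

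The members and gene lists were chosen with earlier results of these data known, which holds for every list and motif. The genes named were the 12 largest rises and 12 largest falls among called genes whose groups did not overlap and whose log2 CPM averaged 3 or more, for each list the 3 largest changes past the test with a mean log2 CPM of at least 1 and the largest against the list's median, the first 2 genes of each list, and the 10 most abundant genes of each group, of which those that add to the text are given. The following were chosen after their values were seen: Abcb1a, Abcc2, Abcc4, Abcg2, Acadm, Acads, Acot1, Alas2, Areg, Bcat1, Bcl2l1, Col4a1, Col4a3, Col4a4, Cry1, Cxcl9, Dbp, Ddb2, Egfr, Epo, Erbb4, Ereg, Fbp1, Fga, Fosl1, G6pc, Gclc, Gclm, H2-DMb1, Hadh, Hnf4a, Hrg, Il1b, Il1rn, Il6, Mlkl, Mmp8, Ptgs2, Ripk3, Rrm2b, Saa1, Slc47a1, Slco2a1, Slco2b1, Slco4a1, Sprr2f, Ube2c, Vgf, Vim and Xpc. Alternatives were DESeq2 1.42.0, other scaling, filters and sample sets, the replicate block and leaving out each kidney. Some genes of the lists, and 1 further motif held by at most 1 gene in each of the lists searched, are not reported here by name. The 66 columns without a name or value were not used.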

Additional observations from a re-analysis of the deposited data

Results flagged for a closer look

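Within each group of 5 kidneys the highest or lowest value was set against the others by Dixon's ratio at the 95% level. Of 394 groups of values behind the text, 28 held a kidney that stood apart, where about 20 were expected by chance. Genes measured in the same kidney are not independent, so the 28 were not tested against that number. For Epo, Saa1 and Vgf the value that stood apart was 1 or 2 counts against 0 in the other kidneys.

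The fifth cisplatin kidney, which also lay nearest to the vehicle kidneys on the first principal component, stood apart most often. It had the highest cisplatin level, with 19.0 CPM for Bbc3 (the others 13.4 to 14.8), 1925 CPM for C3 (the others 1242 to 1401), 15.9 CPM for Cyp2j13 (the others 6.71 to 9.10), 17.1 CPM for H2-DMb1 (the others 7.73 to 9.44), 266 CPM for Slc47a1 (the others 192 to 207) and 283 CPM for Vil1 (the others 216 to 231). It had the lowest with 31.2 CPM for Gsta1 (the others 38.6 to 41.1), 59.6 CPM for Psrc1 (the others 73.4 to 75.1) and 128 CPM for Slc2a1 (the others 186 to 203). The first cisplatin kidney was highest with 132 CPM for Col1a1 (the others 81.0 to 92.7), 103 CPM for Csf1 (the others 59.3 to 70.2) and 24.4 CPM for Lama3 (the others 18.5 to 19.5), and lowest with 50.6 CPM for Atp6v1g3 (the others 59.3 to 61.6) and 6615 CPM for mt-Cytb (the others 8858 to 9375). The second was highest with 1089 CPM for Fga (the others 842 to 908) and 199.9 CPM for Ppara (the others 175 to 182) and lowest with 29.7 CPM for Cxcl1 (the others 41.7 to 46.2), and the fourth had the one count of that hormone gene, 0.0268 CPM for Epo (the others at 0).

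Among vehicle kidneys the third was lowest with 77.9 CPM for Dbp (the others 117 to 131), 2.92 CPM for Lox (the others 6.77 to 7.88) and 1553 CPM for Slc12a3 (the others 1603 to 1612), and the second with 32.4 CPM for Actn1 (the others 42.2 to 45.5). The fourth had 32.0 CPM for Rpl5 (the others 27.4 to 28.2) as its highest and 1.44 CPM for Mlkl (the others 2.22 to 2.49) as its lowest, the fifth 134 CPM for Nfe2l2 (the others 109.8 to 113) and 0.0325 CPM for Vgf (the others at 0) as highest and 1.43 CPM for Fgb (the others 2.09 to 2.25) as lowest, and the first 0.0648 CPM for Saa1 (the others at 0) as highest. With that kidney left out the side of the test was the same for each of these genes except H2-DMb1, which was then lower (log2 fold change -0.34, edgeR adjusted p = 0.0456).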

How the results depend on the processing

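Testing against a log2 fold change of 1 left 2393 genes called, 1147 of them higher and 1246 lower, since it asks for changes beyond that size. The other alternatives stayed within 1.5 times the reported counts: 4710 with DESeq2, 4139 with relative log expression factors, 4352 with scaling by library size, 4767 with no filter, 3281 with at least 1 CPM in 5 libraries and 3844 with the 10 libraries alone. Leaving out 1 kidney at a time gave 4074 to 4308 calls, 2042 to 2168 higher and 2029 to 2192 lower, and a mitochondrial share lower by a difference of -4.56 to -4.30 percentage points. Scaling by library size turned the signs of Atp6v0d2 to 0.20, Rrm2b to 0.18 and Xpc to 0.18, all then past the test, and the medians of the podocyte, endoplasmic reticulum, heat shock and hypoxia lists to 0.023, 0.059, 0.073 and 0.064. Bcat1 was at -0.45 with the higher-numbered libraries alone and at -0.48 without the first 2 vehicle kidneys, a choice made after seeing the data. The hypoxia median was 0.083 with the run of label numbers as a covariate, 0.046 with the higher-numbered libraries alone and 0.080 without those 2 kidneys. Without vehicle replicate 1, 4 macrophage markers and 4 interferon-gamma or class II genes were higher in place of 2 each, and 3 water and salt genes in place of 5, as they were without vehicle replicate 2 or cisplatin replicate 2. Without vehicle replicate 5, 5 endoplasmic reticulum chaperones were higher in place of 3, and without vehicle replicate 3, 5 matrix genes were lower in place of 3. The causes were not tested. Of 3713 values of named genes 3686 kept their direction and side of the threshold. Of 1300 list medians 1134 moved by less than the SD of that median over the cisplatin kidneys, which leaves out the spread between vehicle kidneys. The replicate number as a block gave 4105 calls. Same-numbered kidneys of the 2 groups did not deviate together (correlations of -0.12 to 0.05, and 1 of 5 kidneys correlated best with its own number). No pairing by number was seen, and shared handling of the kidneys was not tested.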
